A study of Mus musculus with 2 samples.

Results

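The cytosolic ribosomal protein genes of mouse heart were described in total RNA sequencing of 2 libraries. The 86 genes, of 55536 annotated genes in all, were chosen by symbol. Each has a protein-coding transcript and a symbol that begins with Rpl or Rps and a digit, or is Rplp0, Rplp1, Rplp2 or Rpsa, and the S6 kinase genes and symbols that end in -ps and a number were dropped. They comprise 46 canonical large subunit genes, 31 canonical small subunit genes, 8 paralogs and Rps19bp1, which the symbol rule took in although it encodes a protein that binds Rps19 and no ribosomal subunit. Both libraries came from 1 group, with no treatment given: heart of female mice of the B6CASTF1/J hybrid strain (a cross of C57BL/6J with CAST/EiJ), 14 days after birth. Of total RNA, 300 ng went into each library, with ERCC spike-ins added. The labels give the same donor for both libraries but a different animal number in their tissue descriptions, and a description shared by both mentions 3 females, so the spread between the libraries, given as SD (n = 2), may be technical in part. Replicate 1 held 36404376 expected counts and replicate 2 held 34569708. With 1 group of 2 libraries no test across samples was made.

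A cytosolic ribosome has a small subunit, which reads the messenger RNA, and a large subunit, which joins amino acids. Each ribosomal protein is present in a single copy per ribosome, apart from the acidic stalk proteins. Many of the messenger RNAs begin with a run of pyrimidines, the terminal oligopyrimidine motif, through which mTOR signalling controls their translation by way of Larp1. In striated muscle the paralog Rpl3l is known to take the place of Rpl3 in part of the ribosomes. The mammalian genome also holds many processed pseudogenes of these genes, which were copied from messenger RNA and lack introns.

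All 77 canonical genes were detected in both libraries, and most were far above the median protein-coding gene of the tissue. Levels are given as TPM, transcript abundances scaled for length and to the same library total. Values from a pair of quantifications were deposited, called here the first quantification (gene level, with expected counts) and the second (transcript level, summed per gene), and the first is used unless the second is named. The median over the 86 members was 193.8 TPM in replicate 1 and 211.4 TPM in replicate 2. The 78 mitochondrial ribosomal protein genes had library medians of 31.9 and 31.3 TPM, and the 11720 nuclear protein-coding genes with a mean of at least 1 TPM had medians of 9.67 and 9.79 TPM. Among the 500 highest nuclear protein-coding genes, 65 were members, and 3 were among the 100 highest.

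Members took 1.69% of all TPM in replicate 1 and 1.78% in replicate 2 (mean 1.74% ± 0.0623, SD, n = 2). Because the messages are short, their share of the expected counts was smaller. It was 0.707% in replicate 1 (Wilson 95% interval 0.705 to 0.710%) and 0.758% in replicate 2 (0.755 to 0.761%), and these intervals cover counting error only. Of the TPM of nuclear protein-coding genes, members took 3.90% and 4.10%. Of the members, 84 had a mean of at least 1 TPM, 83 of at least 10 TPM and 66 of at least 100 TPM. In bulk tissue, fewer cells of a type and less RNA per cell cannot be told apart.

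The highest levels belonged to Rpl41 and to Rplp1 of the stalk. Rpl41, which encodes the shortest ribosomal protein, stood at 688.5 and 758.0 TPM in replicates 1 and 2. Rplp1, an acidic protein of the stalk that recruits elongation factors, stood at 592.7 and 636.6 TPM. Its partner Rplp2 stood at 366.6 and 395.6 TPM, and Rplp0, which anchors both to the large subunit, at 269.9 and 287.0 TPM. Within the stalk the order was thus Rplp1, Rplp2, Rplp0 in both libraries. In the second quantification Rplp0 was instead the highest of the 3, at 509.4 and 546.3 TPM, against 444.3 and 510.5 TPM for Rplp1 and 427.5 and 490.5 TPM for Rplp2.

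The small subunit was led by Rps29, a zinc-binding protein, at 565.1 and 565.6 TPM. Rps14, needed for maturation of the small subunit, followed at 369.8 and 427.6 TPM, and Rps27 at 363.1 and 369.2 TPM. The means of Rps14 and Rps27 differed by less than the SD of Rps14 between the libraries. Large subunit genes had library medians of 194.6 and 208.7 TPM and small subunit genes 224.4 and 221.9 TPM. The order was reversed in the second quantification, with 299.7 and 325.4 TPM for the large subunit and 292.1 and 315.4 TPM for the small.

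The lowest canonical genes were mostly of the large subunit. Rpl5, which binds the smallest ribosomal RNA and carries it into the large subunit, was lowest at 17.7 and 15.8 TPM. Rpl27 was at 20.8 and 22.0 TPM, and Rpl12, which lies at the base of the stalk, at 31.4 and 31.2 TPM. Rpl27a was at 41.9 and 38.4 TPM and Rpl21 at 52.6 and 47.9 TPM. These 5 genes were low in both libraries of the first quantification, and in each library they stood below every small subunit gene. In the second quantification their means were 108.5 TPM for Rpl5, 231.8 for Rpl27, 104.7 for Rpl12, 315.8 for Rpl27a and 191.9 for Rpl21. All of these were above the mean of the small subunit gene Rps3 there, at 98.5 TPM. The lowest canonical gene of the second quantification was Rpl19, with a mean of 73.5 TPM. In the first quantification Rpl36a was at 54.7 and 49.1 TPM, Rps23, a protein of the decoding centre, at 69.1 and 66.4 TPM, and Rpl37 at 76.5 and 72.1 TPM. The plot of levels by library shows a long plateau with a short tail at its low end.

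**Figure D1:**
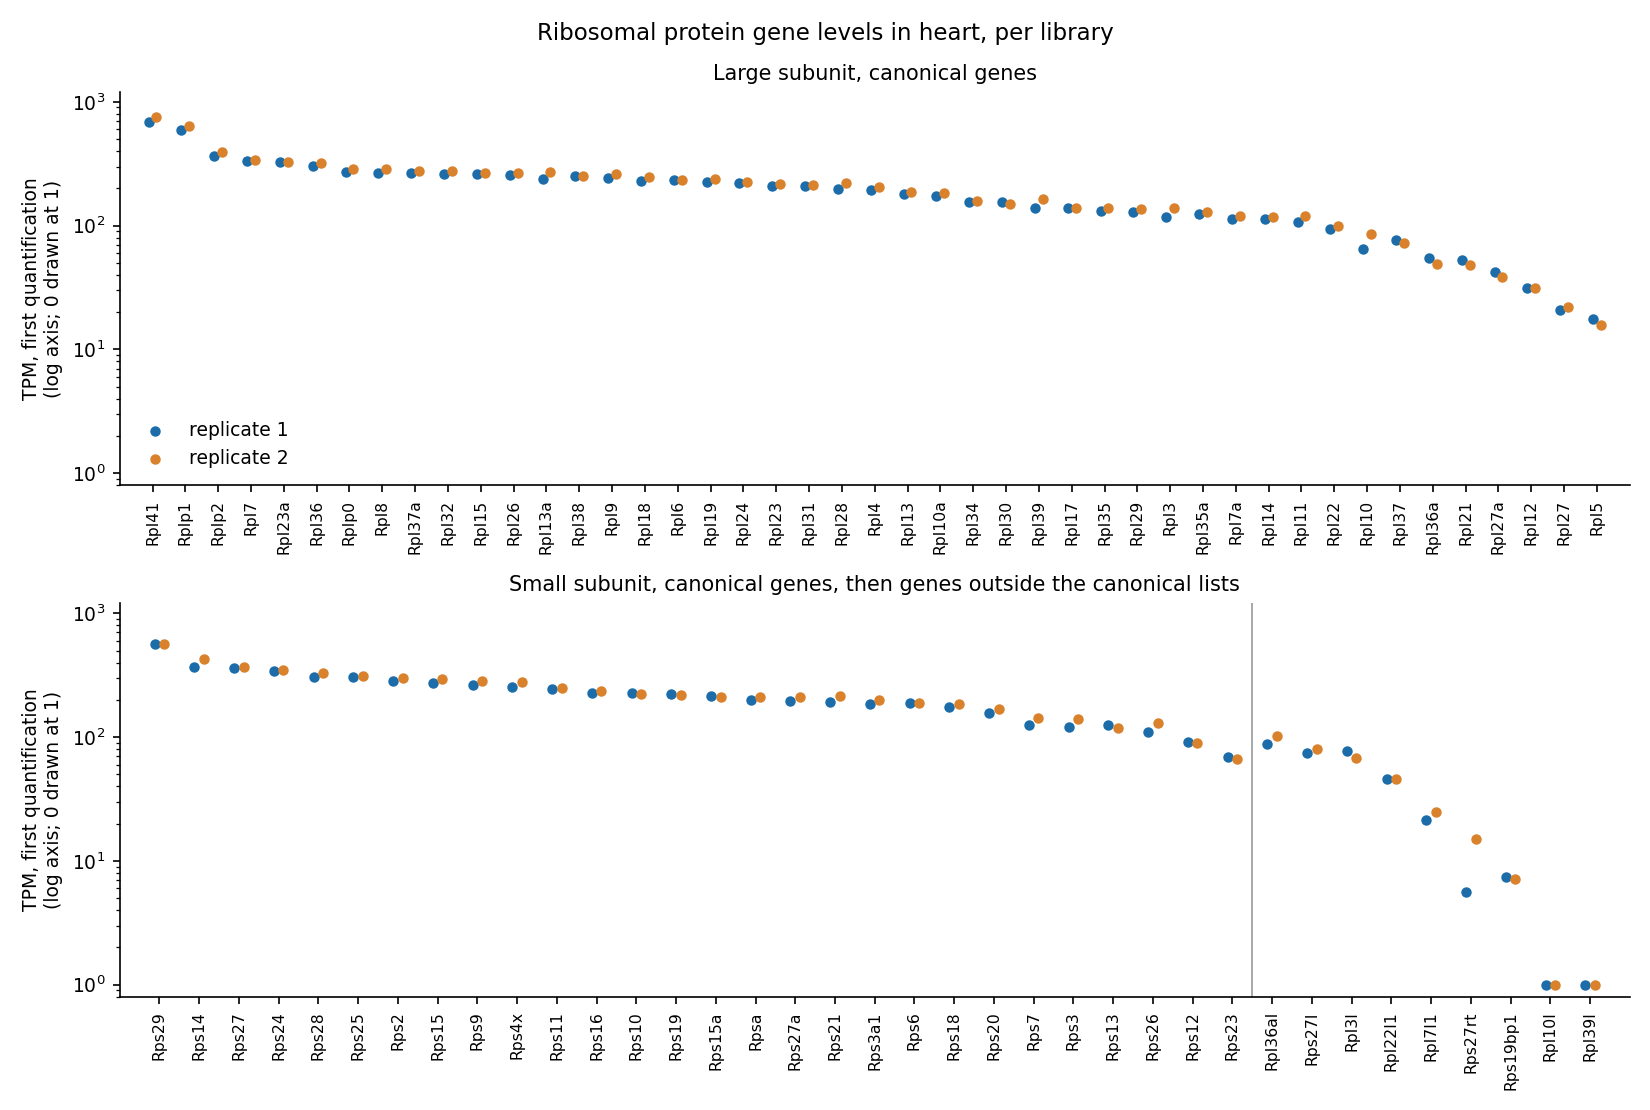
Level of 82 members in TPM (first quantification, log axis, values of 0 drawn at 1) in replicate 1 (blue) and replicate 2 (orange), ordered by mean, with the large subunit in the upper panel and the small subunit and, right of the line, the genes outside the canonical lists in the lower panel. The points of the libraries lie close together, and the canonical genes run from Rpl41 at 688.5 and 758.0 TPM to Rpl5 at 17.7 and 15.8 TPM.

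The 77 canonical genes varied widely in level. The SD of log2(TPM + 1) over the genes was 0.97 in replicate 1 and 1.00 in replicate 2. The highest gene was 38.9 times the lowest in replicate 1 and 48.1 times in replicate 2. In each library 11 canonical genes lay below 0.5 times the canonical median. The order was nearly the same in both libraries (Pearson's r 0.996 and Spearman's rho 0.995 across the 77 genes, on log2(TPM + 1)). Genes are not independent replicates, and these values share the quantification. Level and length were related weakly and inversely across the 77 genes (r -0.39, rho -0.36).

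The low tail was longer in the first quantification than in the second, where 9 and 8 canonical genes lay below 0.5 times the canonical median. Rpl27 stood at 20.8 and 22.0 TPM in the first, against 225.9 and 237.7 TPM in the second. The median over members was also higher in the second, at 286.1 and 306.4 TPM in replicates 1 and 2. Quantifications were compared as first minus second on log2(TPM + 1), after removing the median difference over all annotated genes with a mean of at least 1 TPM (-0.20 in replicate 1 and -0.23 in replicate 2). A gene was called when it differed by at least 2-fold in the same direction in both libraries. Of 84 members with values, 15 were called, against 5.61% of all genes compared. Of these, 12 were lower in the first quantification, against 2.32% of all genes, and 3 were higher, against 3.29%. Among protein-coding genes under 1000 bases, 5.10% were lower and 4.92% higher in the first quantification.

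All 12 lower members were canonical genes. They were Rpl27, Rpl27a, Rpl5, Rpl10, Rps23, Rpl37, Rpl21, Rpl12, Rpl14, Rpl31, Rps12 and Rpl11. The difference was -3.16 for Rpl27, -2.73 for Rpl27a, -2.41 for Rpl5, -2.15 for Rpl10 and -2.11 for Rps23, as means of the libraries on the log2 scale. Rpl27a stood at 41.9 and 38.4 TPM in the first quantification, against 308.9 and 322.6 TPM in the second. Rpl10, among the last proteins to join the large subunit, stood at 64.1 and 85.0 TPM in the first, against 377.8 and 393.5 TPM in the second. Rps23 stood at 69.1 and 66.4 TPM in the first, against 329.5 and 357.7 TPM in the second. For Rpl27, Rpl27a, Rpl10 and Rps23 the values of the libraries did not overlap between the quantifications. These genes were named for the size of this difference, so the lack of overlap was nearly fixed by the choice.

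The 3 higher members were Rps27rt, Rpl19 and Rpl36. Rpl19 stood at 225.0 and 235.6 TPM in the first quantification, against 64.9 and 82.1 TPM in the second, a mean difference of 1.86. Rpl36 stood at 300.1 and 320.2 TPM, against 111.8 and 144.7 TPM in the second, a mean difference of 1.496. Rps27rt had 5.63 and 15.04 TPM in the first and was listed at 0 in the second. Rpl17, with 138.1 and 139.9 TPM in the first and 108.4 and 101.5 TPM in the second, and Rps3, with 120.8 and 138.8 TPM against 94.2 and 102.8 TPM, came next with mean differences of 0.62 and 0.61. These last did not meet the rule.

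The copies of these genes in the genome may bear on such values, since reads can be divided between a gene and a pseudogene of the same sequence. Their part in the differences between the quantifications was not tested. Of the annotated pseudogenes, 1122 matched 80 of the members on the sense strand at 90% identity or more. The median was 10 pseudogenes per canonical gene, and Rpl7a, with 88, had the most. Of the matched pseudogenes, 132 were at least 99% identical over the match and 26 were identical. The counts of 78 members were not whole numbers, at a tolerance of 0.005, so reads had been divided. The members with whole counts included Rpl8, Rps21, Rpl3l, Rps27l and Rps19bp1, besides Rpl10l and Rpl39l at 0.

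Coding starts of 2 genes and their most counted pseudogenes show how little distinguishes them. Each line gives the first 90 bases of the coding sequence, or the matching bases of the pseudogene, from the GENCODE M21 transcripts (mm10), 5′ to 3′, with bases that differ within a pair in capitals. Rpl5 lies on chromosome 5 from 107900502 to 107909005 (plus strand) and Gm15500 on chromosome 7 from 114705217 to 114706235 (minus strand). Rps2 lies on chromosome 17 from 24718116 to 24721929 (plus strand) and Rps2-ps13 on chromosome X from 52898588 to 52899469 (plus strand).
Rpl5: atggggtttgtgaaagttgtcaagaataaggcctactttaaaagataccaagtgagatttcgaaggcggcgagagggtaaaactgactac
Gm15500: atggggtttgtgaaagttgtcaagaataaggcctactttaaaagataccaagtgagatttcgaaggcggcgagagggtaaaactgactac
Rps2: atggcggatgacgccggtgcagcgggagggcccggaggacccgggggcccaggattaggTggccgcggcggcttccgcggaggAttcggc
Rps2-ps13: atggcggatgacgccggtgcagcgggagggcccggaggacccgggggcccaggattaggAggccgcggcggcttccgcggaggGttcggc
The coding sequence of Rpl5 was matched by Gm15500 over all 891 bases with 0 differences. Rps2-ps13 differed from Rps2 at 7 of 882 aligned bases, 2 of them in the stretch shown. Rpl10 and Rpl10-ps3 (642 bases), Rpl27 and Gm11518 (408 bases) and Rpl28 and Rpl28-ps1 (411 bases) had 0 differences over the coding sequence, and Rps23-ps1 had 0 over 425 aligned bases of Rps23. These identities hold for the reference sequences, and the CAST/EiJ alleles of these hybrid mice were not compared.

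These copies held many of the counts. Pseudogenes took 21.3% ± 0.0282 (SD, n = 2) of the counts of members and matched pseudogenes together in the first quantification and 10.3% ± 0.125 in the second. Those named with -ps, 289 in all, took 11.1% ± 0.0111 in the first and 4.55% ± 0.0134 in the second. For 14 members at least 50% of the counts of the gene and its pseudogenes lay in pseudogenes in the first quantification, and for 2 members in the second. These counts and the pseudogene matches describe the division of reads, and whether the pseudogenes are transcribed was not tested.

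Rpl5 had 809 and 724 expected counts in replicates 1 and 2, while Gm15500 had 4635 and 4865. In the second quantification Rpl5 had 1959 and 1881 counts, and Gm15500 had 3502 and 3741. Rpl5 thus had fewer counts than its copy in both quantifications and both libraries. For Rpl10 and Rpl10-ps3 the quantifications gave opposite orders. Rpl10 had 1282 and 1616 counts in the first, against 5111 and 5009 in the second, while Rpl10-ps3 had 3629 and 3264 in the first and 0 in the second. Rpl28, a large subunit protein, had 1618 and 1654 counts in the first and 4252 and 4381 in the second, and Rpl28-ps1 had 2400 and 2521 in the first and 0 in the second.

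Rps23 had 801 and 759 counts in the first quantification and 3215 and 3285 in the second. Rps23-ps1 had 2452 and 2589 in the first, against 154 and 193 in the second. Rps2 and Rps2-ps13 were divided more alike in the quantifications. Rps2 had 7188 and 7334 counts in the first and 8197 and 8407 in the second. Rps2-ps13 had 5799 and 5892 in the first and 4559 and 4659 in the second. Rpl19 ran the other way. Rpl19-ps11 had 198 and 177 counts in the first quantification, against 1780 and 1667 in the second.

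**Figure D2:**
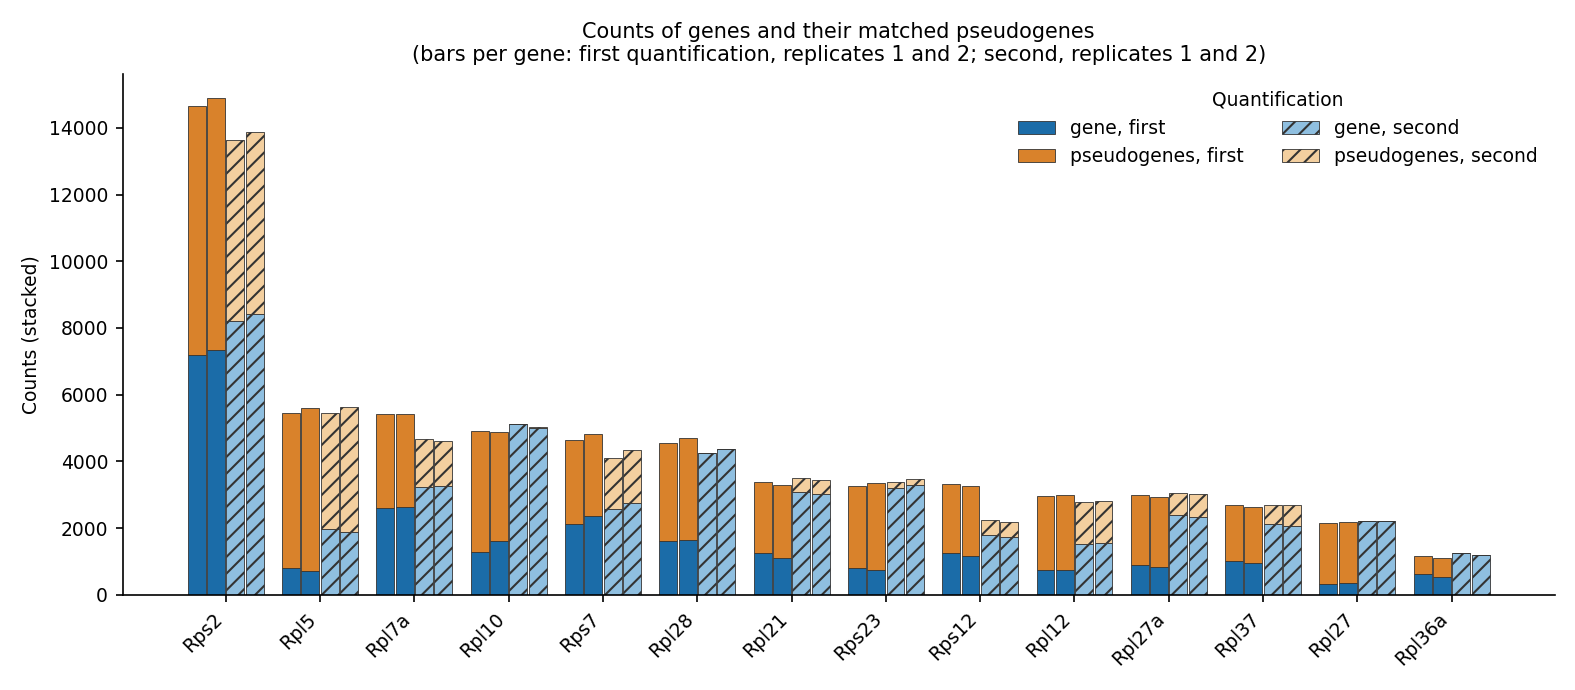
Counts of the 14 genes (blue) with at least 50% of their family's counts in pseudogenes in the first quantification, with those of the matched pseudogenes (orange) stacked on top, in replicates 1 and 2 of the first (plain) and the second (hatched) quantification. The totals are alike for most genes while the division differs, as for Rpl27, with 331 and 343 counts of its own in the first quantification and 2208 and 2203 in the second.

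When the TPM of the matched pseudogenes was added to that of its gene, 2 canonical genes in replicate 1 and 1 in replicate 2 lay below 0.5 times the median, against 11 and 11 for the genes alone. The SD of log2(TPM + 1) over the 77 canonical genes was then 0.52 in replicate 1 and 0.51 in replicate 2 in the first quantification, against 0.97 and 1.00 for the genes alone. The highest sum was 7.35 times the lowest in replicate 1 and 7.57 times in replicate 2. Rpl5 with its pseudogenes stood at 197.1 and 211.1 TPM, against 17.7 and 15.8 TPM alone, and Rpl27 with its pseudogenes stood at 229.7 and 238.9 TPM, against 20.8 and 22.0 TPM alone. In the second quantification the SD was 0.57 and 0.56 with pseudogenes added and 0.70 and 0.69 for the genes alone. Adding pseudogenes can only raise a gene, and most where many counts lie in its pseudogenes, so a shorter low tail was favoured in advance. The addition was also chosen after seeing the data.

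The quantifications were also closer after this addition. Of the 12 canonical genes called lower in the first, 1 still met the rule when pseudogenes were added on both sides. This was Rpl14, at -1.045 in replicate 1 and -1.002 in replicate 2. Across the 77 genes the first and second quantifications were correlated with r 0.77 (rho 0.74) with pseudogenes added and r 0.58 (rho 0.64) for the genes alone, on log2(TPM + 1). On counts r was 0.82 with pseudogenes added and 0.58 for the genes alone. The difference between the quantifications was related to the pseudogenes' share of the family counts with r -0.71 (rho -0.57), though that share comes from the first quantification and is not independent of it. Of the 12 lower genes, 9 had a share of at least 50% and 11 of at least 35%. The quantifications also differ in the effective length used for TPM, which was the transcript length less a median of 99 bases in the first quantification and of 335 (replicate 1) and 334 (replicate 2) bases in the second, among transcripts over 5000 bases. Among the 63 coding transcripts of members under 500 bases it was 99 bases less in the first, against 196 to 325 bases less in replicate 1 of the second (median 309). The part of that in the differences was not tested.

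**Figure D3:**
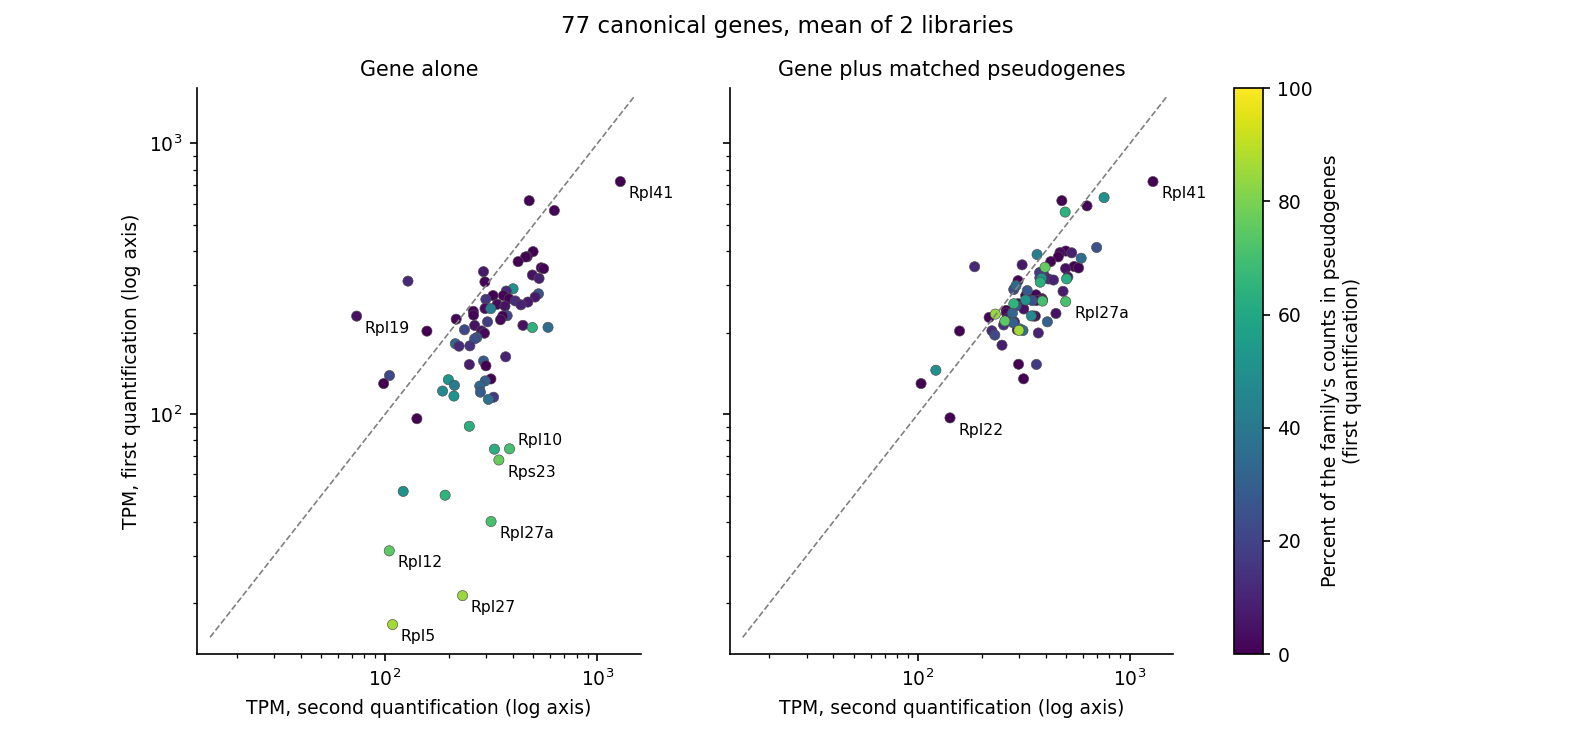
Mean TPM over 2 libraries in the first quantification (y axis) against the second (x axis), both on log axes, for the 77 canonical genes alone (left) and with matched pseudogenes added (right), where the colour gives the pseudogenes' percent of the family counts in the first quantification and the dashed line marks equal values. Genes with a large pseudogene share, such as Rpl5 and Rpl27, lie far below the line on the left and near the other genes on the right, where r was 0.77 against 0.58.

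The libraries differed little in these genes. Differences were taken as replicate 1 minus replicate 2 on log2(TPM + 1), less the median over all annotated genes with a mean of at least 1 TPM (-0.03). A call needed at least 2-fold, at least 50 expected counts on average, and no overlap of the deposited intervals. Of 84 members 0 were called, against 0.349% of all genes compared, and with a difference of 0.5 in log2 in place of 2-fold 0 were called, against 2.28%. Shares this small leave few or no calls in a set of this size, so these counts do not set the members apart from all genes. The median over members was -0.05 (-0.07 before the median of all genes was removed), with 24 canonical genes higher in replicate 1 and 53 higher in replicate 2. Of the canonical genes 98.7% lay within 1.2-fold, against 81.3% of all annotated genes with a mean of at least 1 TPM. Among those with at least 500 counts as well it was 88.2%. The SD of the differences was 0.09 over canonical genes and 0.20 over annotated genes with at least 500 counts.

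The largest difference was that of Rps27rt, at -1.25, with 44 counts in replicate 1 and 112 in replicate 2. Its mean count was above 50, but its deposited intervals overlapped. Rpl10 followed at -0.37, and Rpl3, which lies beside the catalytic centre of the large subunit, at -0.23, with 116.5 and 139.2 TPM. Higher in replicate 1 were Rpl3l at 0.23, Rpl5 at 0.18 and Rpl36a at 0.18. Deposited intervals did not overlap between the libraries for 18 of 84 members, against 12.1% of all genes with a mean expected count of 50 or more. These intervals hold the error of 1 library only and narrow with depth. Airway and red cell markers differed more between these libraries than the members did. The 6 airway marker genes summed to 183.7 TPM in replicate 1 and 11.2 TPM in replicate 2, with 6 of 6 higher in replicate 1 and a median difference of 3.15. The 6 red cell genes summed to 35951 and 27770.2 TPM, with a median difference of 0.39. The 7 cardiomyocyte genes summed to 32910 and 34560 TPM, with all 7 at 1 TPM or more and a median difference of -0.01. The median was 0.17 for macrophage, 0.11 for endothelial and 0.06 for fibroblast markers. The part of these in the differences of the members was not tested.

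Of 6 paralogs with a level above 0, 5 were lower than their canonical genes in both libraries over all transcripts of each gene, Rpl3l among them. Ratios are the log2 of paralog over canonical TPM. Rpl3l, the striated muscle paralog, stood at 77.7 and 67.2 TPM in replicates 1 and 2, against 116.5 and 139.2 TPM for Rpl3. The log2 ratio was -0.58 in replicate 1 and -1.05 in replicate 2 (mean -0.82 ± 0.33, SD, n = 2), so Rpl3l made up 40.02% and 32.56% of the pair. The second quantification gave ratios of -0.70 and -1.23. Rpl3l had 2753 and 2292 counts, a ratio of replicate 1 to replicate 2 of 1.14 after scaling by the library totals (exact Clopper-Pearson 95% interval 1.08 to 1.21, counting error only). For Rpl3 the same ratio was 0.863 (0.822 to 0.905). Both genes were named for the size of this difference, so the ratios are a description of these 2 libraries. The counts of Rpl3 had been divided with pseudogenes, which held 41.4% of the family counts in replicate 1. Of 10 skeletal muscle markers, 2 reached 1 TPM.

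The coding sequences of Rpl3l and Rpl3 were 77.2% identical over 1191 aligned bases, which differed at 272. Rps27l and Rps27 were 80.2% identical over 247. A stretch of each pair is shown for comparison with the pseudogenes above: 26 of 90 bases differed between Rpl3l and Rpl3 and 19 of 90 between Rps27l and Rps27, and these stand in capitals. The Rpl3 bases are 208 to 297 of its coding sequence and the Rps27 bases 49 to 138 (GENCODE M21, mm10, 5′ to 3′). Rpl3l lies on chromosome 17 from 24727820 to 24736143 (plus strand), Rpl3 on chromosome 15 from 80077791 to 80091868 (minus strand), Rps27l on chromosome 9 from 66946086 to 66949516 (plus strand) and Rps27 on chromosome 3 from 90212522 to 90213651 (minus strand).
Rpl3l: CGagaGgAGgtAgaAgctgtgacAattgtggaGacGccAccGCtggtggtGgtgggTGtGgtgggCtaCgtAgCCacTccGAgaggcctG
Rpl3: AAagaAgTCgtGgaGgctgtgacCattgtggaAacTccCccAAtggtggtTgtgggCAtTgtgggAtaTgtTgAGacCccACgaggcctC
Rps27l: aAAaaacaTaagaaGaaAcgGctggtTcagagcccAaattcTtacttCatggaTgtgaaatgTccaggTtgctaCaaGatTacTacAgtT
Rps27: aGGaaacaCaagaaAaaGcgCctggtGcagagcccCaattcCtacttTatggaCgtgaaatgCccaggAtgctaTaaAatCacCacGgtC

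Rps27l, known as a target of p53, stood at 74.9 and 79.5 TPM, against 363.1 and 369.2 TPM for Rps27, a log2 ratio of -2.25 ± 0.04 (SD, n = 2). Rps27rt, a copy of Rps27 on chromosome 9, had 0 differences from it over all 252 coding bases, so its 5.63 and 15.04 TPM depend on how reads were divided, and its ratio was -6.01 and -4.62. Rpl22l1 stood at 46.22 and 46.03 TPM, against 93.1 and 99.4 TPM for Rpl22, an RNA-binding protein of the large subunit. The ratio was -1.06 ± 0.07 and the share of the pair 33.2% and 31.6%. These are values over all transcripts of each gene. Protein-coding transcripts held 2.99% and 9.71% of the Rpl22l1 TPM, against 98.8% and 97.6% for Rpl22. In the second quantification they held 51.9% and 30.4% for Rpl22l1 and 19.2% and 17.0% for Rpl22. Rpl7l1 stood at 21.4 and 24.7 TPM, against 331.4 and 341.1 TPM for Rpl7, a ratio of -3.87 ± 0.11.

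Over all transcripts of each gene, Rpl36al was the exception among the paralogs, with a direction that depended on the quantification. Ratios over coding transcripts alone were not computed, and the coding shares of Rpl22l1 and Rpl22 given above differed between the quantifications. It stood at 88.2 and 102.3 TPM in the first, against 54.7 and 49.1 TPM for Rpl36a, a mean ratio of 0.87 ± 0.26. In the second it stood at 99.2 and 127.5 TPM, against 121.3 and 122.2 TPM for Rpl36a, with ratios of -0.29 and 0.06. Pseudogenes held 47.9% of the counts of Rpl36a and its copies in replicate 1 in the first quantification and 0% in the second. Rpl10l and Rpl39l, both known from the testis, had 0 counts in both libraries and in both quantifications, which allows up to 3 counts in each library. Rps19bp1 stood at 7.45 and 7.13 TPM.

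**Figure D4:**
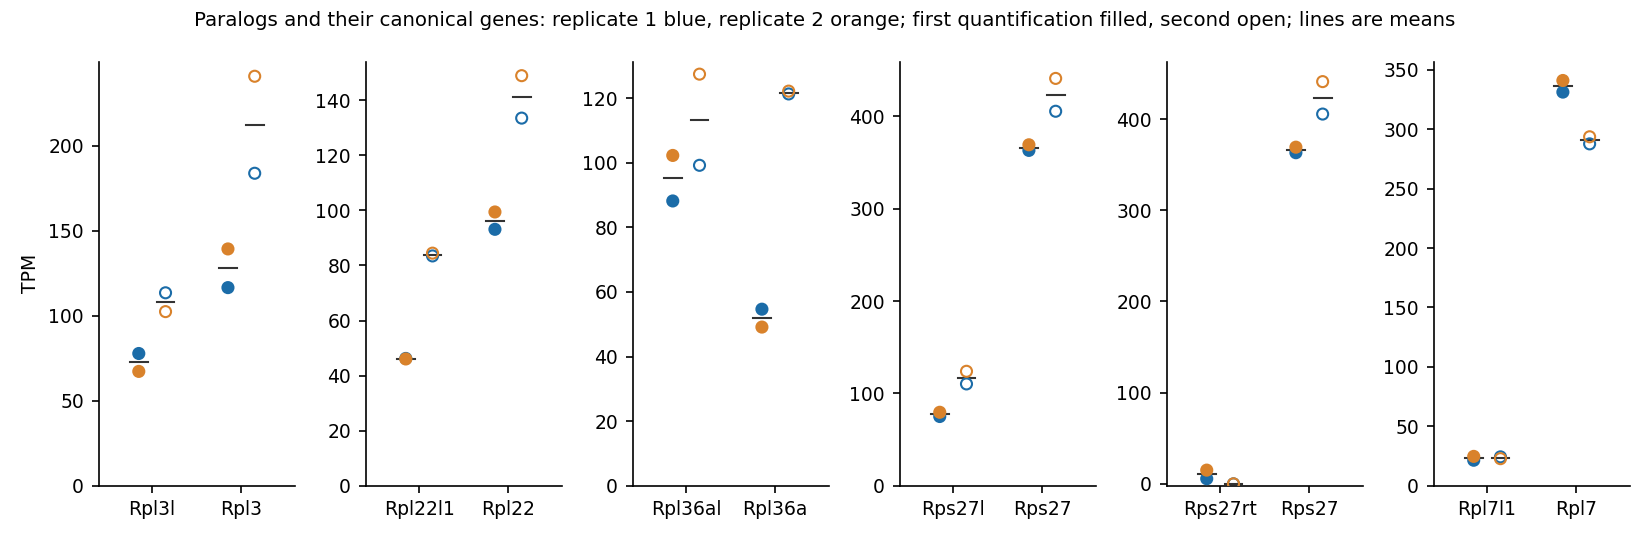
TPM of 6 paralogs (left in each panel) and their canonical genes (right), in replicate 1 (blue) and replicate 2 (orange), with the first quantification filled, the second open and means as lines, on linear axes that differ between panels. Rpl3l lies below Rpl3 in both libraries and both quantifications, and Rpl36al lies above Rpl36a only in the first quantification as a mean (0.87 against -0.11 on the log2 scale).

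Members also had noncoding transcripts. The annotation gave 505 transcripts of the 86 members, of which 237 were coding, 177 were retained intron forms, 65 processed transcripts and 26 targets of nonsense-mediated decay. Over the 83 members with a mean of at least 10 TPM, coding forms held 84.1% ± 0.207 (SD, n = 2) of the TPM in the first quantification and 69.4% ± 0.207 in the second. Retained intron forms held 7.501% in the first and 16.3% in the second, and processed transcripts 5.12% and 11.4%. The median coding share per gene was 98.6% and 98.4% in replicates 1 and 2 in the first quantification and 88.9% and 85.9% in the second. The highest transcript was a coding one for 69 genes in the first and 58 in the second. It was the same transcript in both libraries for 81 genes in the first and 77 in the second, but in both quantifications and libraries for 34.

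A few members had most of their TPM in forms annotated as noncoding. Rps16 had a coding share of 1.72% in replicate 1 and a retained intron share of 98.3%, led by the form Rps16-203 at 64.4% of the gene. In the second quantification the coding share was 18.4% in replicate 1. Rps20, with a coding share of 2.17% in the first and 0.277% in the second in replicate 1, was given mostly to retained intron forms in both. Rpl35 had 96.9% of its TPM in processed transcripts in replicate 1 in the first, against 82.6% in the second. Rps26 had a coding share of 3.91% in the first and 52.8% in the second, and Rpl22l1 of 2.99% in the first and 51.9% in the second, both in replicate 1. Rps27 went the other way, with 99.1% coding in the first and 0.186% in the second in replicate 1, where Rps27-209, a retained intron form, held 89.7%. These forms share exons with the coding ones, and intron reads were not examined apart.

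**Figure D5:**
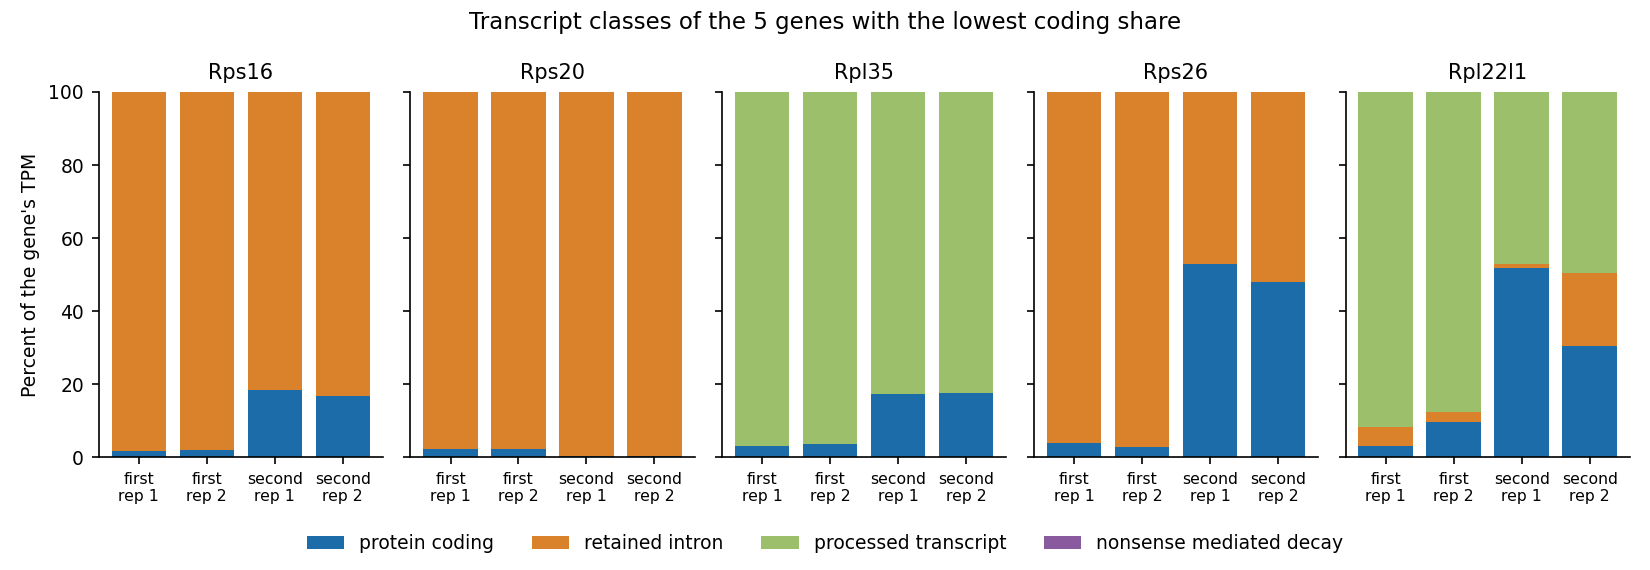
Percent of the gene's TPM in coding (blue), retained intron (orange), processed (green) and nonsense-mediated decay (purple) transcripts in replicates 1 and 2 of the first and the second quantification, for the 5 members with the lowest coding share among those with a mean of at least 10 TPM. The libraries are alike within a quantification for 4 of the genes, while the quantifications differ for Rps26, with a coding share of 3.91% in the first and 52.8% in the second in replicate 1.

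Transcription starts of the members were examined in RefSeq promoter windows (GRCm38.p6, the build mm10), 250 bases before to 50 after each start. The table held 78 starts of 66 members. A run of at least 8 pyrimidines (C or T, sense strand) lay wholly or in part within 20 bases of the start in 44.9% of member starts. It did so in 20.98% of all 32851 starts. The letters ACTTCCG, searched on both strands like the others, stood in 30.8% of member windows, against 6.42% of all windows. GGGCGG stood in 60.3%, against 35.7%, CACGTG in 10.3%, against 7.15%, and TATAAA in 8.97%, against 13.6%. Matches of different letters overlapped in 3 member windows. These are matches of letters and not sites, and several starts belong to the same gene.

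Windows from 40 bases before to 20 after the start are shown for a few members, with the longest pyrimidine run near the start in capitals, sense strand, 5′ to 3′ (GRCm38.p6). Rpl7a (chr2:26910767-26910826, plus strand) and Rpl27a (chr7:109519155-109519214, plus strand) have long runs, with 21 and 20 bases, and Rps6 (chr4:86857348-86857407, minus strand), the substrate of S6 kinase, has 10. Rpl41 (chr10:128549149-128549208, minus strand), the highest member, has a run of 3 at this start. Rpl3l (chr17:24727786-24727845, plus strand) has 5 and holds none of the 4 sets of letters searched.
Rpl7a: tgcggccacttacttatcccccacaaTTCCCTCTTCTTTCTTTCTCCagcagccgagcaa
Rpl27a: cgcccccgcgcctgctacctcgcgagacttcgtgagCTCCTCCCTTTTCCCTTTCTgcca
Rps6: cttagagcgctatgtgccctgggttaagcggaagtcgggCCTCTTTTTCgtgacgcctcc
Rpl41: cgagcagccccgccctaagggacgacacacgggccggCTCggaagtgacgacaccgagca
Rpl3l: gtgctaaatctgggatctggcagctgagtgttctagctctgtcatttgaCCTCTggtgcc

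Other genes of the translation machinery were given as lists for comparison. Among ribosomal proteins whose symbols the rule does not take, Fau, a fusion of a ubiquitin-like and a small subunit protein, was at 249.7 and 268.1 TPM, and the scaffold Rack1 at 167.3 and 183.5 TPM. The list of 14 other genes known for a terminal oligopyrimidine start had library medians of 83.7 and 86.9 TPM. Tpt1 was the highest of them at 1150 and 1121 TPM, with the elongation factors Eef1a1 at 831.2 and 905.8 TPM and Eef2 at 465.9 and 470.9 TPM. The 12 regulators of ribosomal protein messenger RNA translation had medians of 20.2 and 20.6 TPM, with Larp1 at 20.8 and 22.1 TPM and Mtor at 19.52 and 19.01 TPM. The 20 genes of ribosome assembly and RNA polymerase I had medians of 8.42 and 9.15 TPM, with nucleolin, Ncl, highest at 51.21 and 49.97 TPM. Of these 4 lists and the 78 mitochondrial ribosomal protein genes, 0 genes met the rule for a difference between the libraries, against 0.349% of all genes. At so small a share this does not set them apart from all genes.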

How the data were processed

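Total RNA of mouse heart was sequenced in 2 libraries of 1 group. Per the file headers, the deposited tables of the first quantification hold expected counts, estimated by dividing reads between features and not normalized, and TPM scaled by effective length. The deposited TPM interval bounds, a score of precision for 1 library, and each transcript's percent of its gene stand beside them, per the file headers. For the second quantification the deposited transcript tables give estimated counts and TPM, which were summed here per gene. The deposited readme names mm10 and GENCODE M21; programs and the handling of CAST/EiJ alleles: not given in the sources used here.

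Annotated genes held 36197643 and 34358598 expected counts. Log2 values used a pseudocount of 1. Expected counts were rounded for TMM scaling (edgeR 4.0.16) and DESeq2 1.42.0 size factors under R 4.3.3, used only as alternatives. Pseudogenes were matched to members with blastn 2.17.0 (sense strand, at least 90% identity over at least 50% of the pseudogene and 100 bases). Coding sequences were aligned with Biopython 1.88, and Rpl7l1 with Rpl7 and Rps19bp1 with Rps19 were left out. The rule for calls and the matching were tested on simulated data. Members named are the 8 highest and 8 lowest canonical genes, all outside the canonical lists with their canonical genes, the stalk genes, the 3 largest differences between libraries and the 5 largest between quantifications in each direction, and the 5 lowest coding shares; some of these are not reported here; others, and the pseudogenes and promoters, were chosen after their values were seen. The members and lists were chosen with earlier results of these data known. Figures were drawn with matplotlib 3.10.9; the rest ran in Python 3.11.15 (pandas 2.3.3, numpy 2.4.6, scipy 1.17.1).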

Additional observations from a re-analysis of the deposited data

How the results depend on the processing

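Under the second quantification the median level was 295.5 TPM, the share of the library 2.63%, the SD among canonical genes 0.70, the median coding share 87.3% and the share of named pseudogenes 4.55%. The share of the library was 0.733% on expected counts and 4.00% of nuclear protein-coding genes. The SD among canonical genes was 0.92 on counts scaled by library total, 0.51 with pseudogenes added and 0.57 with pseudogenes added in the second quantification, an alternative chosen after seeing the data. Pseudogenes matched by sequence, also chosen after seeing the data, took 21.3%, and those at 99% identity or more 18.4%. The log2 ratio of Rpl36al to Rpl36a reversed to -0.11 in the second quantification. There the ratio was -0.75 for Rpl22l1, -3.63 for Rpl7l1 and -1.86 for Rps27l, and on counts it was -1.70 for Rpl22l1, -0.42 for Rpl3l, -2.52 for Rpl7l1 and -1.54 for Rps27l. The number of members lower in the first quantification was 21 with the median difference kept, 1 with pseudogenes added and 7 on counts. The cause was not tested. Leaving out each library moved the median coding share to between 98.4% and 98.6%, and the median level to between 193.8 and 211.4 TPM. The median difference between the libraries kept its sign, from -0.06 to -0.04, and 0 members were called in the 4 alternatives tried (TMM, DESeq2 size factors, the second quantification and a difference of 0.5). Of 84 members' levels, 73 were higher and 10 lower in the second quantification by more than the spread between libraries. Here the median difference over all genes (first minus second, -0.20 in replicate 1 and -0.23 in replicate 2) was kept. The spread is an SD of 2 values, and the same share over all genes was not computed. No paired analysis was possible because the libraries form 1 group. Depth limits Rpl10l and Rpl39l, where 0 counts leave room for 3 in each library.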

Other observations

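The members lay on 19 chromosomes, with 14 of them on chromosome 7. Introns of ribosomal protein genes are known to carry small nucleolar RNAs, which guide the modification of ribosomal RNA. Of the 86 members, 30 held 58 annotated small nucleolar RNA genes on their own strand and within their bounds, and Rpl4, with 5, held the most. Rpl13a held 4, and Rpl5, Rpl7a and Rps12 held 3 each. Levels of these small RNAs were not examined. Counts for all annotated genes, by chromosome or by small nucleolar RNA genes held, are not given here for comparison.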
